A study of Drosophila melanogaster with 9 samples.

Results

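The genes described here encode the shortest proteins measured in fly heads: nuclear protein-coding genes whose longest annotated coding sequence (CDS) holds at most 100 codons, stop codon not counted, and which had at least 100 counts in each of 9 libraries. Ribosomal proteins, named subunits of the respiratory chain and the proton ATPases, odorant binding and cuticle proteins, classical antimicrobial peptides, initiation factors, proteasome subunits and 5 neuropeptide genes were left out by symbol. Of 23932 features in the gene table, 842 were nuclear protein-coding genes of at most 100 codons, 162 of these passed the count minimum, and 134 remained once 28 genes of the named families were removed. The count minimum is itself a measured value, so the levels that chose the members are given as a description only. Just inside it stood CG30033 and CG42376, each with 105 counts in its lowest library, and just outside it BomT2 with 99 and CG43324 with 98. At the codon limit, Ms, Sec61beta and Lamtor5 encode exactly 100 codons. The members ranged from 15 to 100 codons with a median of 69.5, and 90 of the 134 carry only a CG number in place of a gene name.

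Heads of untreated wild type Dahomey flies, an outbred laboratory stock, were taken from whole adults of 0 to 5 days that had been snap frozen, with no sex given. Lysates made with cycloheximide, which holds ribosomes on their mRNA, were separated on a sucrose gradient, and the fractions of single ribosomes (80S) and of mRNAs with several ribosomes (POLY) were each pooled and sequenced beside total RNA (TOT), for which 10% of the lysate had been kept. Each group held 3 libraries, described as biological triplicates, of 13555484 (POLY replicate 1) to 44096558 (80S replicate 3) counts. The comparisons ask which mRNAs the 2 ribosome fractions carry relative to each other and to the lysate. Levels are given in CPM, the count scaled to the library size after TMM adjustment. Differences are log2 fold changes ± SE from edgeR, with p-values adjusted over 13076 features with a threshold of 0.01. The summed CPM of neuronal markers (elav, nSyb, brp, Syt1) was 3375 to 3669 in 80S, 4966 to 5142 in POLY and 3697 to 4114 in TOT. That of photoreceptor markers (ninaE, trp, Arr2) was 10151 to 12332 in 80S, 8593 to 9895 in POLY and 14165 to 16773 in TOT, and that of fat body markers (Yp1, Yp2, Lsp2) 15659.6 to 23251 in 80S, 11914 to 20337 in POLY and 18844 to 26725 in TOT. Muscle markers gave 5027 to 9242 in 80S, 3861 to 5183 in POLY and 3376 to 4374 in TOT, and glial markers 535 to 569 in 80S, 491 to 580.0 in POLY and 698 to 754 in TOT. Female germline markers (osk, vas) summed to 5.26 to 19.7 CPM over the 9 libraries and male germline markers (dj, Mst84Da, bam) to at most 0.577. Neuronal markers were thus highest in POLY, and photoreceptor and glial markers highest in TOT, with no overlap between these and the other groups, and the part of these shifts in the members' differences was not tested. For levels in whole heads and their spread between replicates, fewer cells of a type and less RNA per cell cannot be told apart, whereas the contrasts compare portions of the same lysates.

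An mRNA is read by several ribosomes at once where its coding sequence leaves room for them, and a very short coding sequence fills up with few. Short proteins of the fly include small subunits of membrane complexes, such as the Sec61 channel through which secreted proteins enter the endoplasmic reticulum, metal-binding proteins, ubiquitin-like modifiers, peptide hormones, and the secreted peptides that the fat body makes during infection. A further class consists of short open reading frames that the annotation lists as genes of their own although they lie on the mRNA of another gene, usually upstream of its main coding sequence. A ribosome that reads such an upstream frame and a ribosome that reads the main frame sit on the same molecule, and RNA sequencing of a fraction does not tell which frame holds the ribosome.

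That last class made up a large part of the members. By the annotation, 71 of the 134 shared no exon base with another gene on the same strand and are called stand-alone here, 8 shared less than 50% of their exon bases, and 55 shared 50% or more with another coding gene. In 42 of these 55 the short CDS lay upstream of the partner's CDS, in 6 downstream and in 7 within its span. Reads over both genes had been divided evenly between them in the deposited counts, and 35 of the 55 had a mean count within 10% of the partner's. CG42379, CG42380 and CG42381, which lie together on the mRNA of PIG-M, had identical counts in every library, as did the pairs CG10570 and CG42502, and CG17325 and CG42305. The shared members were shorter (median 53 codons) than the stand-alone ones (77), while their summed exons were longer, with a median of 2588 against 700.0 nt. Only 9 of the 71 stand-alone genes had whole-number counts in every library, and the others carry fractions of divided reads.

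Stand-alone short-protein genes took a smaller part of both ribosome fractions than of total RNA. They held 0.868, 1.06 and 0.956% of all counts in TOT replicates 1 to 3, 0.428, 0.692 and 0.625% in 80S and 0.461, 0.759 and 0.625% in POLY. The means were 0.963% ± 0.0981 in TOT, 0.582% ± 0.137 in 80S and 0.615% ± 0.149 in POLY (SD, n = 3). Neither fraction overlapped with TOT, while 80S and POLY overlapped with each other. By replicate number, POLY lay above 80S in replicates 1 and 2 and was level with it in replicate 3, at 0.625%. No test is given for these shares, since the members were chosen by their counts. These shares are sums in which abundant genes weigh most. Nplp3, described below, had the highest mean level of the stand-alone genes, at 1819 CPM beside a median of 27.1. All its TOT values exceeded its fraction values, and the shares without it were not computed. The 55 members with shared reads held 0.77, 0.712 and 0.681% in 80S, 0.752, 0.755 and 0.75% in POLY and 0.748, 0.734 and 0.714% in TOT. Their 80S and TOT shares overlapped, and POLY lay above TOT by 0.0207 percentage points with no overlap, which was likewise not tested. Replicate 1 had the lowest share of counts on the stand-alone genes in each of the 3 groups, and 37 of the 71 genes had their lowest CPM in replicate 1 in 80S, in POLY and in TOT alike. The same held for 7 of the 55 shared members, and the share over all features was not computed. Replicate 1 also had the fewest counts in each group. Calls from a fit with the replicate number as a block are given beside the results they change.

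Against total RNA, short-protein genes were more often lower than higher in the monosome fraction. In 80S minus TOT, 36 of the 134 members fell and 4 rose, beside 8.95% and 6.68% of all 13076 features, and their median log2 fold change was -0.28 beside -0.02 over all features. Among the 71 stand-alone genes 21 fell and 0 rose in edgeR, with a median of -0.46. At an unadjusted p under 0.05, 41 of them were lower and 1 higher, beside 22.4% and 19.1% of all features, and DESeq2 called 0 higher, beside 7.63% of all features. The 55 shared members had a median of -0.15, with 12 lower and 4 higher. With the replicate block, 65 members fell and 13 rose, of which 41 and 2 were stand-alone, beside 19.2% and 15.3% of all features. Of the 6374 nuclear protein-coding genes with the same count minimum, 22.9% fell and 23.3% rose in that fit. The count of members lower was 18 without TOT replicate 1 and 22 without TOT replicate 2 or TOT replicate 3, and the stand-alone count was 12 without 80S replicate 3 and 10 to 12 without any of the TOT libraries. In the fits without TOT replicate 1, 2 or 3 the share of all features called lower was 4.5%, 5.11% and 5.23%, and without 80S replicate 3 it was 5.49%. The count of members higher was 2 without TOT replicate 2 or TOT replicate 3, where 1.49% and 1.75% of all features were higher.

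In the polysome fraction, set against the same TOT libraries, more members fell than rose. In POLY minus TOT, 46 members fell and 7 rose, beside 12.2% and 10.4% of all features, with a median of -0.37 beside -0.05. Of the stand-alone genes 23 fell and 0 rose (1 higher at an unadjusted p under 0.05, beside 22% of all features, and 1 by DESeq2, beside 10.4%), with a median of -0.44, and of the shared members 21 fell and 6 rose. With the replicate block 74 members fell and 15 rose, 44 and 1 of them stand-alone, beside 23.4% and 17.9% of all features. Of the 6374 nuclear protein-coding genes with the same count minimum, 30.6% fell and 23.0% rose in that fit. The count of members lower was between 24 and 29 without POLY replicate 1, POLY replicate 3 or any of the TOT libraries, and that of stand-alone genes between 13 and 15 without the same libraries. In these fits the share of all features called lower was between 5.81% and 7.26%. There were 15 stand-alone genes lower than TOT in both fractions, in contrasts that share the TOT libraries: CG15715, Nplp3, CG14818, peg, CG33170, CG31808, Lamtor5, sun, CG6770, Sec61beta, CG13315, CG12643, CG17298, EMRE and CG33494. Of all features 5.33% were lower in both, and 6 of the 15 genes kept both calls whichever library was left out. Their log2 fold changes ran from -1.57 to -0.46 in 80S minus TOT and from -1.67 to -0.67 in POLY minus TOT. Among them peg encodes a small secreted peptide, and it had 32.7, 38.1 and 40.9 CPM in 80S, 28.3, 29.7 and 33.6 in POLY and 65.5, 67.3 and 59.02 in TOT. Its TOT libraries were all above the fractions, at -0.78 ± 0.11, adjusted p = 0.00054 and -1.06 ± 0.11, adjusted p = 5.8e-05, both kept whichever library was left out. Without POLY replicate 2 the median of all members in this contrast was -0.53.

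Longer genes with the same count minimum were grouped by CDS length, with overlapping genes and the families left out of the members kept in. In 80S minus TOT the median log2 fold change was -0.43 for 506 genes of more than 100 and up to 200 codons and -0.22 for 1290 genes of up to 400. It was 0.01 for 2441 genes of up to 800 and 0.29 for 1975 genes of more than 800 codons. In POLY minus TOT these medians were -0.53, -0.33, -0.10 and 0.33. Once genes with a same-strand overlap were left out, the 439 genes of the class of up to 200 codons had -0.45 in 80S minus TOT and -0.56 in POLY minus TOT, beside -0.46 and -0.44 for the stand-alone members, which differ from them also in having the named families removed. These differences between classes were not tested. Within the stand-alone members the bins of CDS length were close in 80S minus TOT, where the median was -0.48 for 15 genes of at most 60 codons, -0.46 for 27 genes of 61 to 80 and -0.50 for 29 genes of 81 to 100. In POLY minus TOT the medians went down from the shortest to the longest bin, at -0.31, -0.44 and -0.55. By summed exon length, 24 stand-alone genes of at most 500 nt had medians of -0.37 in 80S minus TOT and -0.25 in POLY minus TOT, 30 genes of up to 1000 nt had -0.67 and -0.55, and 17 genes over 1000 nt had -0.32 and -0.63.

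**Figure D1:**
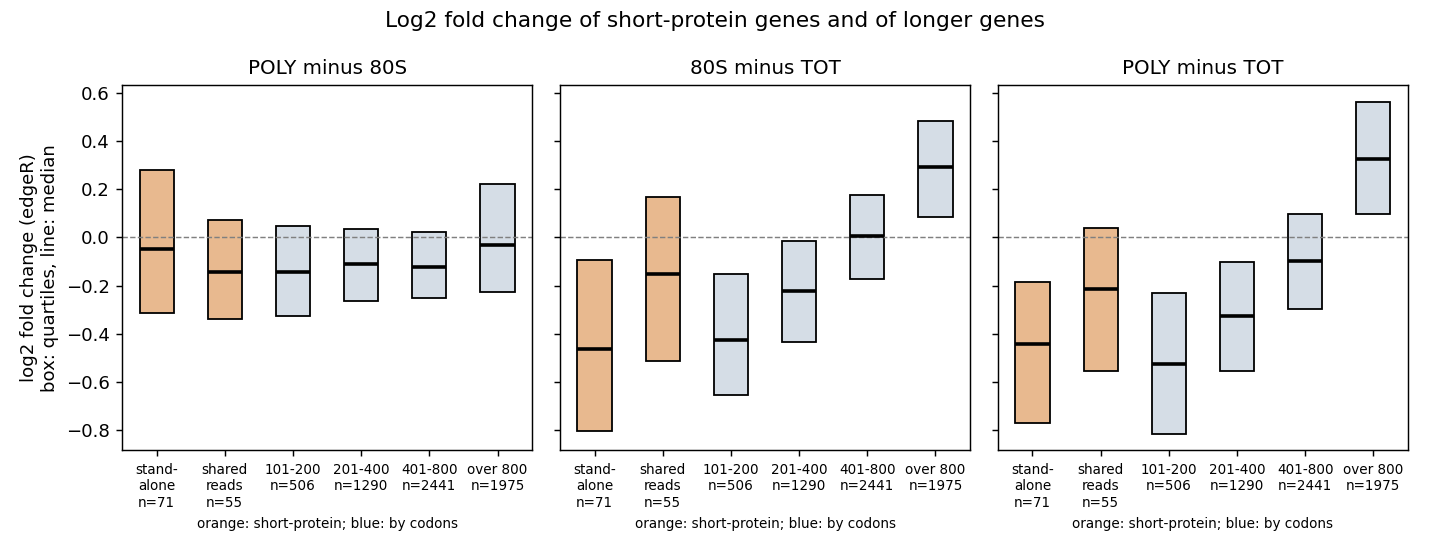
Log2 fold change (y axis, edgeR) of the short-protein genes, split into stand-alone genes and genes with shared reads (orange), and of longer genes by CDS length in codons (blue), for the 3 contrasts. Boxes span the quartiles and lines mark the medians: the stand-alone median is -0.46 in 80S minus TOT and -0.44 in POLY minus TOT (-0.43 and -0.53 for genes of up to 200 codons, overlapping genes and the removed families included), while in POLY minus 80S it is -0.05.

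The largest drops against TOT included genes with no known name. CG17298 (95 codons) stood at 18.4, 28.04 and 28.3 CPM in the 80S libraries of replicates 1 to 3, 17.7, 31.5 and 28.8 in POLY and 58.6, 74.9 and 90.2 in TOT. Every TOT library was above every fraction library, and the log2 fold change was -1.57 ± 0.23, adjusted p = 0.0007 in 80S minus TOT and -1.51 ± 0.23, adjusted p = 0.00062 in POLY minus TOT. CG11368 (65 codons, X:7452209-7452643, BDGP6) had 20.04, 30.3 and 24.1 CPM in 80S, 37.1, 67.8 and 51.1 in POLY and 62.5, 107 and 87.7 in TOT. In 80S minus TOT it fell by 1.78 ± 0.24, adjusted p = 0.00049, which was the largest drop among the members past the threshold, and its POLY values overlapped with TOT. CG15715 (77 codons) had 15.6, 24.3 and 25.1 CPM in 80S, 12.1, 17.6 and 16.00 in POLY and 36.6, 40.6 and 37.4 in TOT. Its log2 fold change was -0.81 ± 0.17, adjusted p = 0.0053 in 80S minus TOT and -1.31 ± 0.18, adjusted p = 0.00034 in POLY minus TOT, and the former lost its call without POLY replicate 3 or any of the TOT libraries (adjusted p up to 0.018). The calls on CG17298 and CG11368 given here were kept whichever library was left out.

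Among the members of the secretory path, 1 of 3 listed genes fell in 80S minus TOT and 2 fell in POLY minus TOT, beside 8.95% and 12.2% of all features. With the replicate block all 3 fell in each, beside 19.2% and 23.4%. Sec61beta, a subunit of the translocation channel of the endoplasmic reticulum, had 15.3, 25.3 and 22.2 CPM in 80S, 15.5, 24.4 and 23.1 in POLY and 36.1, 41.6 and 40.6 in TOT. It fell in 80S minus TOT (-0.90 ± 0.19, adjusted p = 0.0047) and in POLY minus TOT (-0.89 ± 0.19, adjusted p = 0.0038). Both calls were sensitive to single libraries: the first was lost without 80S replicate 1 or 3 or any of the TOT libraries (adjusted p up to 0.015) and the second without POLY replicate 1 or 3 or any of the TOT libraries (adjusted p up to 0.016). Sec61gamma, the second small subunit of the channel, had 8.38, 16.9 and 16.96 CPM in 80S, 8.46, 19.5 and 13.96 in POLY and 26.05, 34.9 and 32.9 in TOT. No fraction library reached a TOT library, but neither contrast passed the threshold (-1.13 ± 0.28, adjusted p = 0.012, and -1.13 ± 0.29, adjusted p = 0.0101). With the replicate block both did (adjusted p = 1.4e-06 and 1.3e-06). Dpm2, a subunit of the dolichol phosphate mannose synthase which shares its reads with CG12016, fell in POLY minus TOT (-0.56 ± 0.11, adjusted p = 0.0029). This call was lost without POLY replicate 1 or 3 or any of the TOT libraries (adjusted p up to 0.02). In 80S minus TOT its value was -0.44 ± 0.11, adjusted p = 0.012. Its adjusted p with the block was 9.3e-05. Of the 13 genes on this list, Spase12, Dpm3 and ghi were short but under the count minimum.

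Sumo, the ubiquitin-like modifier that is attached to lysines of nuclear proteins, was the only one of 3 listed modifiers and ligase subunits to fall against TOT. Its exons overlap in part with an annotated copy of the transposon mdg1. It had 12.2, 18.9 and 16.4 CPM in 80S, 10.8, 22.9 and 17.3 in POLY and 36.7, 44.9 and 41.1 in TOT. Its TOT levels were above every fraction level, with log2 fold changes of -1.36 ± 0.22, adjusted p = 0.0015 (80S minus TOT) and -1.24 ± 0.23, adjusted p = 0.0016 (POLY minus TOT), kept whichever library was left out. Sem1, a small subunit of the proteasome lid, had 28.7, 44.6 and 45.6 CPM in 80S, 25.4, 43.4 and 38.7 in POLY and 30.6, 36.7 and 36.8 in TOT. The 3 groups overlapped, and none of the contrasts passed the threshold with or without the block. For lmgA, the RING subunit of the anaphase-promoting complex, whose reads are split with lmgB, the values were -0.21 ± 0.09 in 80S minus TOT and -0.28 ± 0.09 in POLY minus TOT, neither past the threshold. Lamtor5, a subunit of the Ragulator complex on lysosomes, had 11.8, 15.4 and 15.8 CPM in 80S, 12.9, 13.4 and 11.6 in POLY and 23.3, 22.7 and 19.9 in TOT. It fell in POLY minus TOT (-0.80 ± 0.13, adjusted p = 0.00085) and in 80S minus TOT (-0.61 ± 0.13, adjusted p = 0.0046). The latter call was lost without TOT replicate 1 or 2 (adjusted p up to 0.026). Cks85A, a small subunit of cyclin-dependent kinases, was past the threshold in no contrast, with 0.31 ± 0.18 in 80S minus TOT.

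Mitochondrial proteins that the symbol rule had left in include sun and EMRE, which fell in both fractions. The gene sun, the epsilon subunit of ATP synthase, had 38.4, 56.6 and 50.5 CPM in 80S, 36.99, 60.1 and 45.1 in POLY and 77.5, 87.7 and 86.4 in TOT. All fraction libraries lay below all TOT libraries, at -0.79 ± 0.17, adjusted p = 0.0061 in 80S minus TOT and -0.82 ± 0.17, adjusted p = 0.0038 in POLY minus TOT. The first call was lost without 80S replicate 1 or 3, POLY replicate 3 or any of the TOT libraries (adjusted p up to 0.02) and the second without POLY replicate 1 or 3 or any of the TOT libraries (adjusted p up to 0.02). EMRE, the regulator of the mitochondrial calcium uniporter, showed 7.55, 13.5 and 10.6 CPM in 80S, 8.84, 14.3 and 10.1 in POLY and 18.9, 23.2 and 18.6 in TOT. It fell in both contrasts (-0.92 ± 0.21, adjusted p = 0.0073, and -0.85 ± 0.21, adjusted p = 0.009). The first call was lost without 80S replicate 1 or 3, POLY replicate 3 or any of the TOT libraries (adjusted p up to 0.027) and the second without 80S replicate 3, POLY replicate 1 or 3 or any of the TOT libraries (adjusted p up to 0.043). Cox17, which carries copper to cytochrome oxidase, had 18.4, 26.7 and 25.1 CPM in 80S, 16.6, 25.3 and 18.9 in POLY and 23.1, 27.7 and 25.6 in TOT. Its groups overlapped, with -0.32 ± 0.17, adjusted p = 0.16 in POLY minus TOT. The blocked fit gave adjusted p = 0.0047. The cytochrome oxidase subunit cype gave -0.41 ± 0.15, adjusted p = 0.057 in POLY minus TOT, and adjusted p = 0.00044 with the block, and ox, a small subunit of complex III, -0.60 ± 0.23, adjusted p = 0.064. Under the block the adjusted p was 0.0067. Ccdc56, an assembly factor of cytochrome oxidase on the mRNA of mtTFB1, fell in POLY minus TOT (-0.68 ± 0.11, adjusted p = 0.00091) and in POLY minus 80S (-0.48 ± 0.11, adjusted p = 0.00977). The latter lay close to the threshold and was lost whichever library was left out (adjusted p up to 0.051). Of the 5 listed members of the respiratory chain (cype, sun, ox, Cox17 and Ccdc56), 1 fell in POLY minus 80S, 1 in 80S minus TOT and 2 in POLY minus TOT. The shares of all features lower in these contrasts were 4.31%, 8.95% and 12.2%. With the block all 5 fell in POLY minus TOT, beside 23.4% of all features.

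Atox1, the chaperone that passes copper to the Golgi, had 15.5, 19.5 and 19.8 CPM in 80S, 17.8, 24.5 and 24.3 in POLY and 28.8, 34.96 and 32.3 in TOT. It fell in 80S minus TOT (-0.80 ± 0.14, adjusted p = 0.002), kept whichever library was left out, and gave -0.52 ± 0.14, adjusted p = 0.014 in POLY minus TOT. The fit with the block put the adjusted p at 2.4e-05. MtnA, a metallothionein that binds copper and zinc, had 102, 152 and 129.9 CPM in 80S, 93.6, 166 and 97.8 in POLY and 158, 216 and 163 in TOT, and its POLY and TOT values overlapped. It passed no threshold in the unblocked fit (-0.48 ± 0.22, adjusted p = 0.12 in 80S minus TOT) but did against TOT with the block (adjusted p = 0.00013 for 80S and 8.9e-06 for POLY). Acbp2, which binds acyl-CoA esters, had 29.5, 47.6 and 43.9 CPM in 80S, 48.99, 80.8 and 61.3 in POLY and 43.9, 63.8 and 59.3 in TOT. POLY lay above 80S in every pair of libraries, at 0.66 ± 0.21, adjusted p = 0.043. With the block it had adjusted p = 1.2e-06. It was the single member of 6 listed acyl-CoA binding proteins, as Ggamma1 was of 2 listed G protein gamma subunits and Cks85A of 11 small nuclear and RNA-modifying proteins, while MtnA and Atox1 were the members among 7 metal-binding genes and Nplp3 and Ms among 20 peptide precursors. Small mitochondrial import proteins (8 listed genes), Sm and LSm ring proteins (17), dynein light chains (7) and small membrane peptides of calcium uptake (6) had no member.

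**Figure D2:**
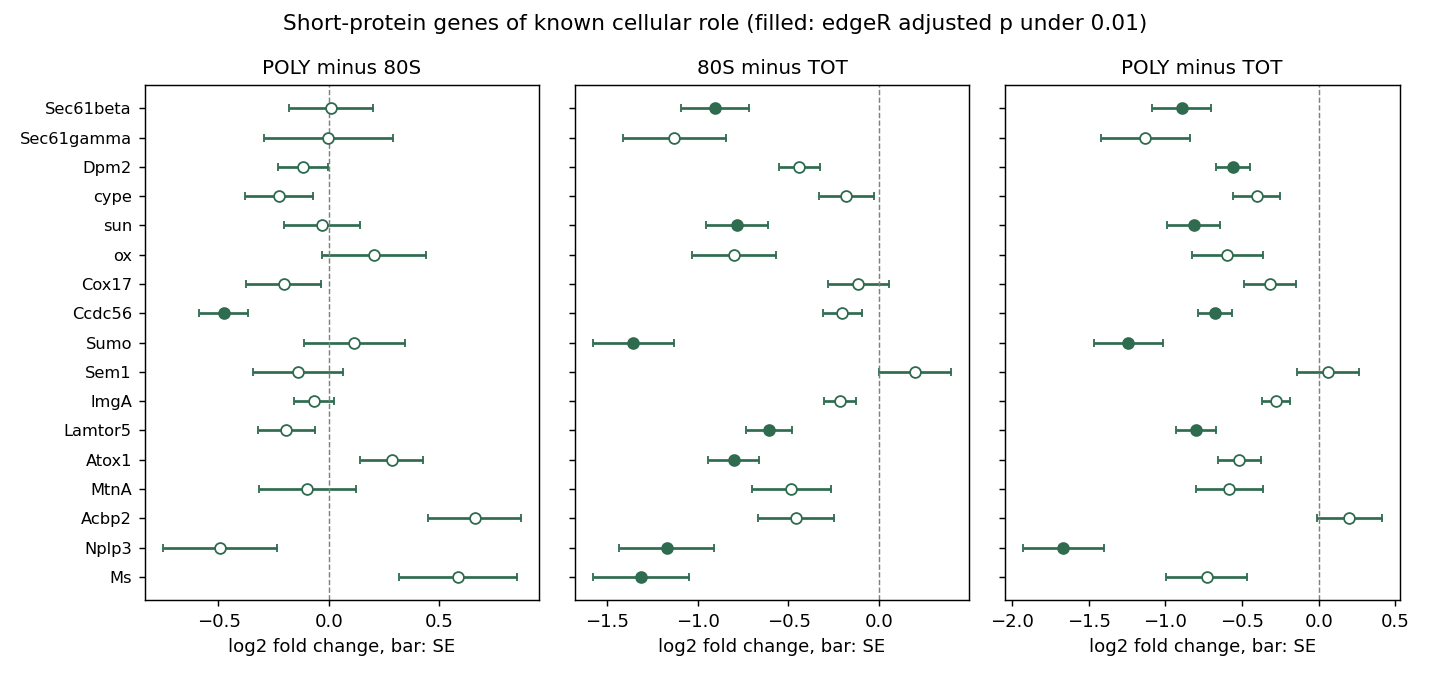
Log2 fold change with its standard error (x axis, edgeR) for 17 short-protein genes of known role (rows) in the 3 contrasts, filled where the adjusted p was under 0.01. Against TOT most points lie to the left of 0, as for Sec61beta at -0.90 and Sumo at -1.36 in 80S minus TOT, while in POLY minus 80S the points spread to both sides from -0.49 for Nplp3 to 0.66 for Acbp2.

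The neuropeptide-like precursor Nplp3 was the stand-alone member with the highest level per length, at 3380.2 CPM per kb of exon over the 9 libraries. After it came CG6503 at 851, the immune-induced peptide BomS3 at 551, Ggamma1 at 533 and CG6770 at 364 CPM per kb. Nplp3 (3L:16318024-16318690, 90 codons) had 902, 1754 and 1475 CPM in 80S, 643, 1280.2 and 1009.8 in POLY and 2721, 3463 and 3121 in TOT. All TOT values exceeded all fraction values, and it fell in POLY minus TOT (-1.67 ± 0.27, adjusted p = 0.00081) and in 80S minus TOT (-1.17 ± 0.26, adjusted p = 0.0069). The latter did not hold without 80S replicate 1 or 3, POLY replicate 3 or any of the TOT libraries (adjusted p up to 0.023). In POLY minus 80S its value was -0.49 ± 0.26, adjusted p = 0.2. Each POLY library was below the 80S library of the same number. Its adjusted p with the block was 0.00089. Ms, the precursor of myosuppressin, a peptide that inhibits visceral muscle, had 12.7, 23.1 and 20.3 CPM in 80S, 18.1, 39.8 and 25.9 in POLY and 40.1, 55.00 and 45.7 in TOT. It fell in 80S minus TOT (-1.31 ± 0.27, adjusted p = 0.0041), a call lost without 80S replicate 1 or 3 or any of the TOT libraries (adjusted p up to 0.02), and it was 0.58 ± 0.27, adjusted p = 0.14 in POLY minus 80S. The blocked fit gave adjusted p = 0.00051. The direction of the POLY and 80S difference was thus opposite for the 2 peptide precursors, and that difference between the genes was not tested.

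Between the 2 ribosome fractions, the median of the members was the same as that of all features. In POLY minus 80S, 12 rose and 10 fell, beside 7.87% and 4.31% of all features, and the median was -0.08 beside -0.08 over all features. The stand-alone genes gave 4 higher and 2 lower with a median of -0.05, the shared members 7 higher and 8 lower with -0.14, and the 8 partly shared members 1 higher (CG43850). The blocked fit called 25 members higher and 32 lower, 15 and 15 of them stand-alone, beside 12.8% and 14.2% of all features. Of the 6374 nuclear protein-coding genes with the same count minimum, it called 11.8% higher and 20.4% lower. Single libraries weighed on these counts: there were 18 lower without 80S replicate 1, 7 higher without 80S replicate 3, and 7 higher and 4 lower without POLY replicate 3. Of all features, 4.42% were lower without 80S replicate 1, 5.45% higher without 80S replicate 3, and 5.06% higher and 1.32% lower without POLY replicate 3. Of the stand-alone genes, 2 were higher without 80S replicate 3 and 1 without POLY replicate 3, and 6 were lower without 80S replicate 1 and 1 without any other single library but POLY replicate 2.

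Ggamma1, a gamma subunit of heterotrimeric G proteins, was the most abundant per length of the stand-alone genes that rose in POLY minus 80S. It had 1057, 1086 and 1054 CPM in 80S, 1485, 1933 and 1919 in POLY and 1638, 1623 and 1507 in TOT. The 80S and POLY libraries did not overlap, and the log2 fold change was 0.74 ± 0.11, adjusted p = 0.00088, kept whichever library was left out. Relative to TOT it fell in 80S (-0.58 ± 0.11, adjusted p = 0.0037), a call lost without 80S replicate 2 or 3 or any of the TOT libraries (adjusted p up to 0.02), and differed by 0.16 ± 0.11 in POLY, not past the threshold. Its transcripts encode the same 70 codons but end in 3′ UTRs of 2231 or 570 nt. In the table of transcripts, where reads over shared exons were divided evenly, the long form took 71.9, 66.2 and 66.6% of the gene's counts in 80S, 74.4, 71.7 and 72.8% in POLY and 69.95, 69.03 and 69.1% in TOT. The 80S and POLY ranges overlapped, although POLY was higher than 80S in each replicate number.

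CG8369 (94 codons, 3R:8822008-8822838) had 28.1, 30.5 and 35.1 CPM in 80S, 43.9, 60.9 and 57.7 in POLY and 53.7, 69.5 and 62.04 in TOT. POLY was above 80S in every library at 0.79 ± 0.14, adjusted p = 0.0021, a call lost without 80S replicate 2 or POLY replicate 3 (adjusted p up to 0.013), while in 80S minus TOT it fell by 0.98 ± 0.14, adjusted p = 0.00068. CG11368, whose values are given above, had the largest rise of a stand-alone gene (1.07 ± 0.24, adjusted p = 0.0075). The call did not hold without 80S replicate 1 or 3, POLY replicate 2 or 3 or TOT replicate 3 (adjusted p up to 0.032). Rdh (47 codons) had 9.53, 13.4 and 13.00 CPM in 80S, 18.9, 17.5 and 21.3 in POLY and 17.3, 15.9 and 15.6 in TOT, with 80S below POLY and TOT, and rose in POLY minus 80S (0.67 ± 0.14, adjusted p = 0.0047). It dropped out without 80S replicate 3 or POLY replicate 3 (adjusted p up to 0.029). On the other side, drm, which encodes a small zinc finger protein of gut development (2L:3539247-3548423), had 19.9, 18.9 and 18.9 CPM in 80S, 10.7, 12.3 and 13.6 in POLY and 24.7, 23.2 and 24.3 in TOT. The 3 groups were fully apart, with POLY lowest, at -0.65 ± 0.10, adjusted p = 0.0011 in POLY minus 80S and -0.97 ± 0.10, adjusted p = 7.6e-05 in POLY minus TOT, both kept whichever library was left out. CG16978 (96 codons) had 11.3, 14.1 and 13.8 CPM in 80S, 8.38, 9.52 and 7.49 in POLY and 11.2, 13.1 and 12.8 in TOT. It fell in POLY minus 80S (-0.63 ± 0.13, adjusted p = 0.0058), a call lost without 80S replicate 2 or 3, POLY replicate 1 or 3 or any of the TOT libraries (adjusted p up to 0.034), and in POLY minus TOT (-0.55 ± 0.13, adjusted p = 0.0081). That call was lost without 80S replicate 2 or 3, POLY replicate 1 or 3 or any of the TOT libraries (adjusted p up to 0.041).

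**Figure D3:**
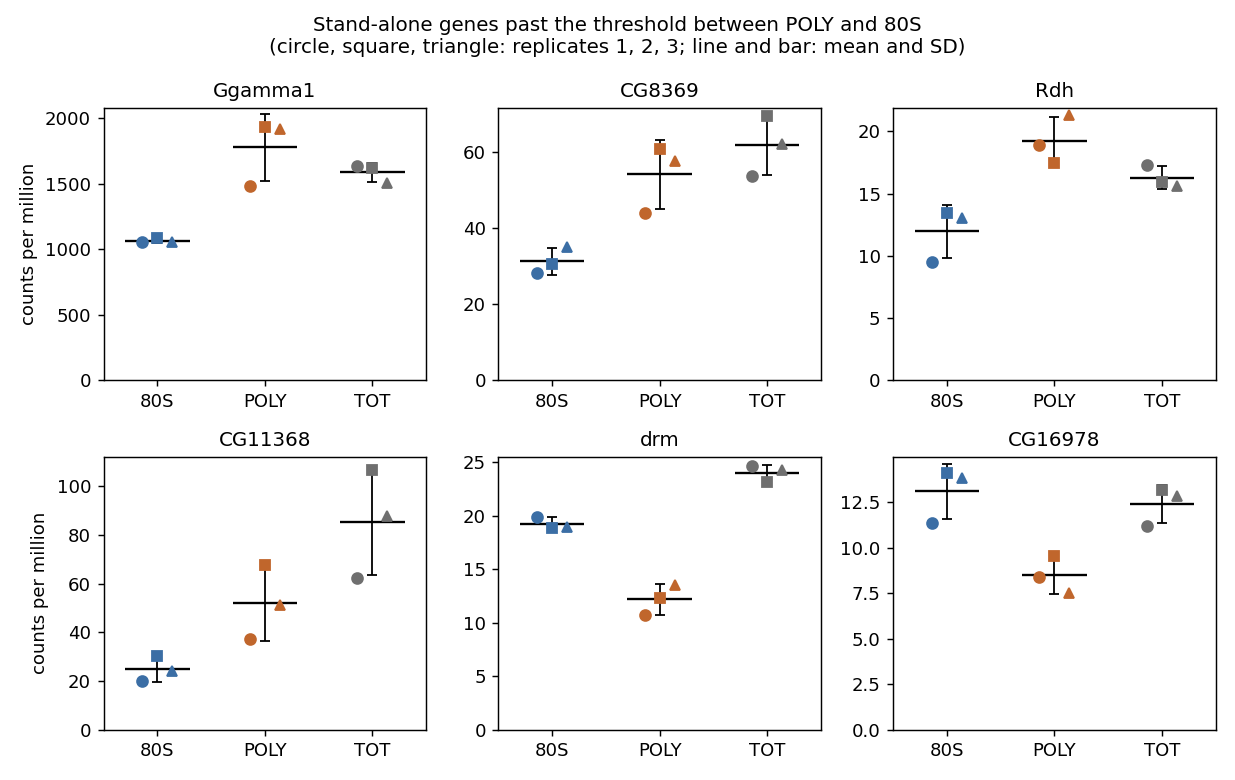
CPM (y axis, from 0) of the 6 stand-alone genes past the threshold in POLY minus 80S, for the 3 libraries of each group (circle, square and triangle for replicates 1, 2 and 3), with the mean and SD (n = 3). In Ggamma1, CG8369, Rdh and CG11368 all POLY points lie above all 80S points, and in drm and CG16978 all lie below; for CG11368 the range is 20.04 to 30.3 in 80S and 37.1 to 67.8 in POLY.

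The immune-induced peptides (Bomanins of the BomS and BomBc types, the Daisho peptides Dso1 and Dso2, and IM33) are small secreted proteins made by the fat body, mostly under Toll signalling. Of 22 listed genes 8 were members, and none passed the threshold in POLY minus 80S in the edgeR fit without a block (unadjusted p under 0.05: 3 higher and 2 lower, beside 16.3% and 20.2% of all features; DESeq2: 0 and 0, beside 7.25% and 4.78%). With the block 3 rose (BomS2, Dso1 and Dso2) and 2 fell (BomS3 and BomS6), beside 12.8% and 14.2% of all features. Dso1 had 85.4, 198 and 157 CPM in 80S, 173, 365 and 213 in POLY and 254, 403 and 302 in TOT. Each POLY library was above the 80S library of its number, while replicate 1 was lowest and replicate 2 highest in every group, at 0.77 ± 0.32, adjusted p = 0.1. Under the block the adjusted p was 0.00015. BomS2 had 42.5, 75.6 and 70.4 CPM in 80S, 78.2, 136 and 95.9 in POLY and 95.4, 152 and 113 in TOT, and no POLY value fell into the 80S range, at 0.71 ± 0.25, adjusted p = 0.056. The fit with the block put the adjusted p at 1.7e-06. Dso2 gave 0.73 ± 0.31, adjusted p = 0.11. With the block it had adjusted p = 0.00052.

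BomS3, the most abundant of the 8 per length, went the other way. It had 302, 671 and 545 CPM in 80S, 207, 370.2 and 255 in POLY and 426, 541 and 497 in TOT. Within each replicate number POLY was below 80S, at -0.87 ± 0.27, adjusted p = 0.035, and adjusted p = 0.0006 with the block, and 80S and TOT overlapped (0.05 ± 0.26). BomS6 had 28.5, 42.5 and 35.3 CPM in 80S, 26.5, 31.7 and 23.2 in POLY and 33.9, 43.98 and 31.1 in TOT, at -0.39 ± 0.17, adjusted p = 0.13 in POLY minus 80S. Its adjusted p with the block was 0.0017. BomS1 (0.38 ± 0.32), IM33 (0.28 ± 0.28) and BomBc3 (-0.19 ± 0.10) passed neither threshold in that contrast. Against TOT none of the 8 passed 0.01 in edgeR without the block. At an unadjusted p under 0.05, 4 were lower in 80S and 3 in POLY, beside 22.4% and 26.2% of all features. DESeq2 called 0 and 0 lower, beside 8.87% and 9.85%. With the block 5 fell in 80S and 4 in POLY, beside 19.2% and 23.4% of all features. The fat body markers, beside these fat body products, were summed at 11914 to 26725 CPM, and their part in the spread between replicates was not tested.

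**Figure D4:**
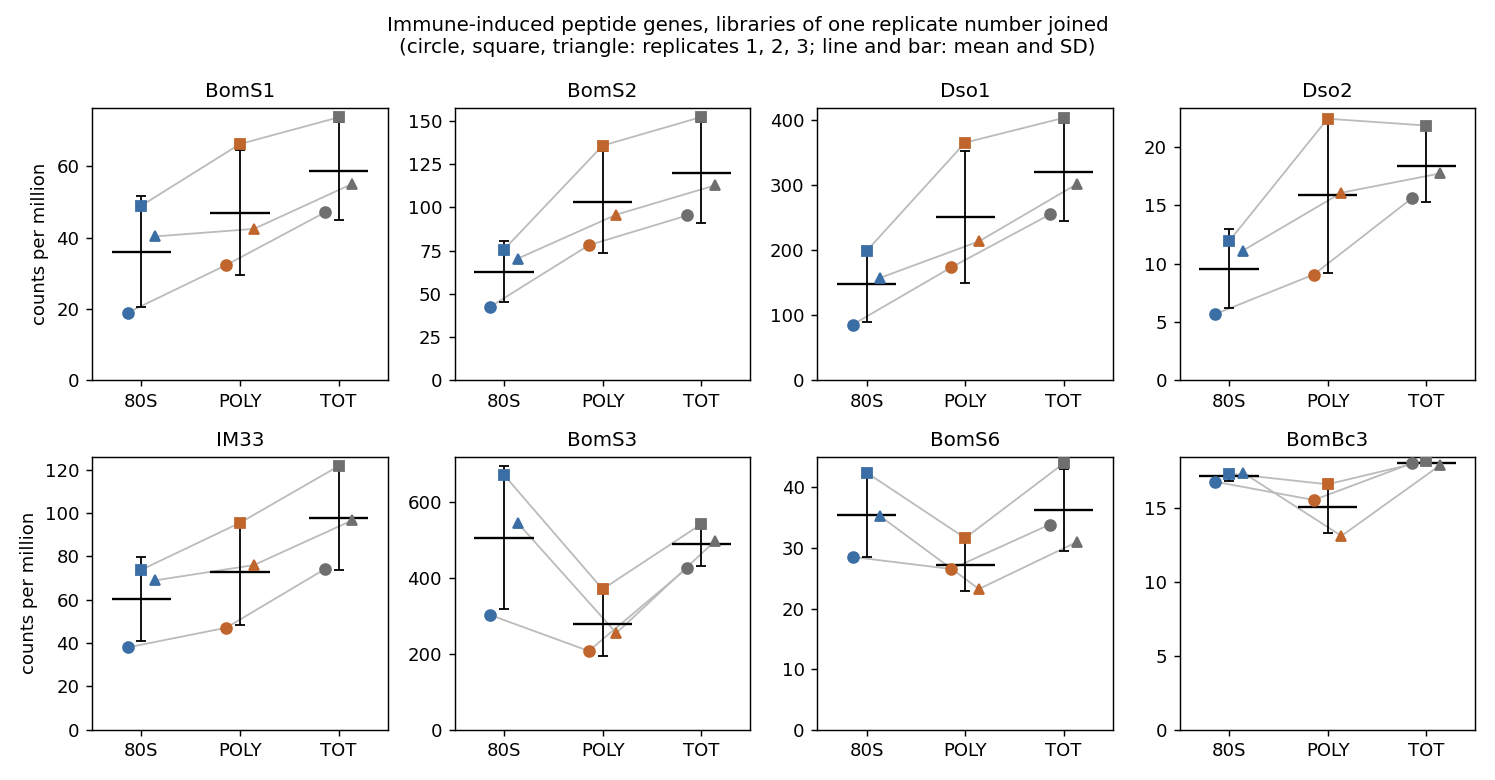
CPM (y axis, from 0) of 8 immune-induced peptide genes by group, with libraries of one replicate number joined by grey lines, and the mean and SD (n = 3) in black. Lines run upward from 80S to POLY in BomS1, BomS2, Dso1, Dso2 and IM33 and downward in BomS3, BomS6 and BomBc3, and for BomS3 the replicate 2 line goes from 671 to 370.2 CPM.

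Members that share most of their exon bases followed the gene whose mRNA they lie on. The difference between a member's and its partner's log2 fold change had a median size of 0.00904 in POLY minus 80S, 0.00883 in 80S minus TOT and 0.0128 in POLY minus TOT over the 55 members, a likeness that the even split of reads sets. The largest differences were 0.247, 0.479 and 0.384 in the same order. In 80S minus TOT, CG33199 was at -0.67 and its partner CG8229 at -0.19. The 55 had 51 distinct partners with a median CDS of 396 codons. Grouped by that length, the median POLY minus TOT of the short genes was -0.51 for 33 members with partners of at most 500 codons, -0.04 for 16 with up to 1000, and 0.72 for 6 with more than 1000. Over the distinct partners, Spearman's rho between partner codons and the member's log2 fold change was 0.707 in POLY minus TOT, 0.685 in 80S minus TOT and 0.086 in POLY minus 80S, across genes that were read from the same libraries and are not independent replicates. For the 71 stand-alone members, rho between own codons and log2 fold change was -0.226 in POLY minus TOT. It was -0.127 in 80S minus TOT and -0.066 in POLY minus 80S. These genes span at most 100 codons, a much narrower range than the partners, so their rho cannot be set against that of the partners.

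**Figure D5:**
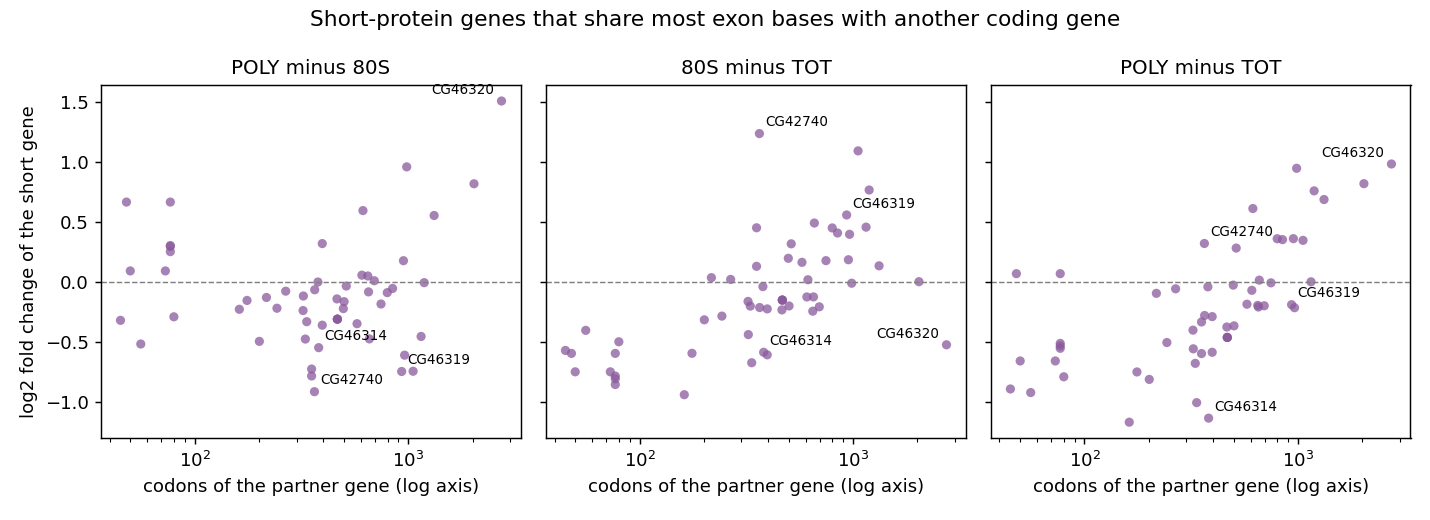
Log2 fold change (y axis, edgeR) of the 55 short-protein genes that share at least 50% of their exon bases with another coding gene, against the CDS length of that partner in codons (log axis), for the 3 contrasts. Against TOT the points lie higher for longer partners, and in POLY minus TOT they range from -1.17 for wrm2 to 0.98 for CG46320, where each point measures the mRNA and not the short reading frame alone.

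CG46320, 54 codons upstream of still life (sif, 2734 codons, a guanine nucleotide exchange factor of synapses), had the largest rise of any member in POLY minus 80S. It had 566, 506 and 479 CPM in 80S, 1660.1, 1295 and 1443 in POLY and 788, 738 and 703 in TOT. No group overlapped with another, and the log2 fold change was 1.504 ± 0.12, adjusted p = 9.7e-06, with 1.49 for sif itself. It also rose in POLY minus TOT (0.98 ± 0.11, adjusted p = 0.00015), both kept whichever library was left out, and fell in 80S minus TOT (-0.52 ± 0.11, adjusted p = 0.0058). The call dropped out without 80S replicate 2 or 3, POLY replicate 3 or any of the TOT libraries (adjusted p up to 0.029). CG46244, 26 codons upstream of the receptor tyrosine phosphatase Lar, had 157, 142 and 139 CPM in 80S, 295, 224 and 252 in POLY and 150.5, 148 and 139 in TOT. It rose in POLY relative to both other groups (0.82 ± 0.11, adjusted p = 0.00029, and 0.82 ± 0.11, adjusted p = 0.00028), which did not differ past the threshold. CG46308, 27 codons within the span of CG42784, had 100.8, 80.6 and 75.5 CPM in 80S, 200.3, 137 and 161 in POLY and 91.9, 82.1 and 84.6 in TOT, and rose likewise (0.96 ± 0.14, adjusted p = 0.00073, and 0.94 ± 0.14, adjusted p = 0.00063). CG46307 on Nhe2, a sodium and proton exchanger, and CG46318 on ChT, the choline transporter, rose by 0.55 ± 0.11 and 0.59 ± 0.11 in POLY minus 80S (adjusted p = 0.0052 and 0.0024). No single library took the calls from CG46244 or CG46308, that on CG46307 was lost without 80S replicate 2 or 3 or POLY replicate 1 or 3 (adjusted p up to 0.027), and that on CG46318 without 80S replicate 2 or 3 (adjusted p up to 0.014).

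Other shared members fell in POLY minus 80S. CG42740 (51 codons, downstream of CG2217) had 54.5, 39.3 and 39.6 CPM in 80S, 29.2, 20.1 and 21.8 in POLY and 19.95, 17.5 and 19.1 in TOT. Every 80S library was above every other, with -0.91 ± 0.16, adjusted p = 0.0019 in POLY minus 80S, lost without POLY replicate 3 (adjusted p = 0.013), and 1.23 ± 0.16, adjusted p = 0.00039 in 80S minus TOT. CG46319, 59 codons upstream of the transcription factor gemini (gem), had 1012, 828 and 757 CPM in 80S, 508, 519 and 521 in POLY and 623, 578 and 565 in TOT, also highest in 80S, at -0.75 ± 0.11, adjusted p = 0.00069 in POLY minus 80S and 0.56 ± 0.11, adjusted p = 0.0039 in 80S minus TOT. The latter dropped out without TOT replicate 2 or 3 (adjusted p up to 0.039). inaF-B, which photoreceptors need for the function of the TRP channel, and inaF-A lie with inaF-C and inaF-D at a single locus and divide reads. inaF-B had 400.8, 414 and 349.6 CPM in 80S, 198, 270.1 and 235 in POLY and 384, 357 and 323 in TOT, with POLY below the other groups, at -0.73 ± 0.12, adjusted p = 0.0016 in POLY minus 80S and -0.60 ± 0.12, adjusted p = 0.0033 in POLY minus TOT. The first call was lost without POLY replicate 3 (adjusted p = 0.0103) and the other without POLY replicate 1 or 3 or TOT replicate 1 or 2 (adjusted p up to 0.028). inaF-A had 79.6, 74.5 and 61.9 CPM in 80S, 40.3, 47.4 and 37.4 in POLY and 57.00, 52.7 and 48.2 in TOT, at -0.78 ± 0.12, adjusted p = 0.00088 in POLY minus 80S. CG43732, 36 codons on CG42613, had 858, 697 and 625 CPM in 80S, 752, 721 and 696 in POLY and 443, 438 and 403 in TOT. It rose relative to TOT in 80S (0.76 ± 0.12, adjusted p = 0.00098) and in POLY (0.76 ± 0.12, adjusted p = 0.00067), the former lost without TOT replicate 3 (adjusted p = 0.011), with -0.01 ± 0.12 between them.

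Some pairs of short genes share their exons with each other and with no long gene. CG17325 (77 codons) and CG42305 (48 codons) lie on the same exons and carry the same counts, which were 14.8, 15.6 and 15.8 CPM in 80S, 27.5, 22.3 and 23.7 in POLY and 24.4, 22.2 and 23.3 in TOT for each. POLY and TOT lay above 80S, at 0.66 ± 0.10, adjusted p = 0.00081 in POLY minus 80S and -0.60 ± 0.10, adjusted p = 0.0016 in 80S minus TOT. The latter call dropped out without TOT replicate 1 (adjusted p = 0.011). CG10570 (73 codons) and CG42502 (50 codons), likewise identical, had 176, 168 and 172 CPM in 80S, 204, 178 and 167 in POLY and 316, 277 and 274 in TOT, with TOT above both fractions at -0.75 ± 0.10, adjusted p = 0.00039 and -0.66 ± 0.10, adjusted p = 0.00051. CG46314, 26 codons on the mRNA of crc, the fly homologue of the stress-response factor ATF4, had 339.8, 357 and 308 CPM in 80S, 219.7, 244 and 223 in POLY and 530.3, 489 and 491 in TOT. Its 3 groups were apart, highest in TOT and lowest in POLY, at -0.59 ± 0.09, adjusted p = 0.001 in 80S minus TOT, -1.13 ± 0.09, adjusted p = 1.3e-05 in POLY minus TOT and -0.55 ± 0.09, adjusted p = 0.0014 in POLY minus 80S. The last of these was lost without POLY replicate 1 or 3 (adjusted p up to 0.011). For crc itself the last of these was -0.58. The other shared members past the threshold in POLY minus 80S were CG45101 at -0.61 ± 0.13 and CG46456 at -0.48 ± 0.08, and the partly shared CG43850 rose by 0.55 ± 0.10. The call on CG45101 was lost without 80S replicate 3, any of the POLY libraries or any of the TOT libraries (adjusted p up to 0.02), and that on CG43850 without 80S replicate 2 or 3 or POLY replicate 3 (adjusted p up to 0.015). CG46456 kept its call whichever library was left out, and lost it with only the 6 libraries compared. Over all 134 members the values ran from -0.91 (CG42740) to 1.504 (CG46320) in POLY minus 80S and from -1.78 (CG11368) to 1.23 (CG42740) in 80S minus TOT.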

How the data were processed

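RNA of 80S, POLY and TOT fractions of fly heads was sequenced in 3 biological replicates each, grouped by the labels. The deposited values are estimated counts per gene and per transcript, not normalised: the authors trimmed reads with Trimmomatic 0.33, aligned them with STAR 2.7.10a to BDGP6.32 (Ensembl release 109) and counted with featureCounts 2.0.1 by strand, dividing multi-mapped and overlapping reads evenly. Even division makes overlapping genes resemble each other. Single-read libraries held 13555484 to 44096558 counts, and depth limits the precision of members near the count minimum of 100. Coding lengths and overlaps came from Ensembl release 115 of the same assembly (BDGP6.54).

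Here counts were rounded and tested with edgeR 4.0.16 (R 4.3.3; quasi-likelihood, filterByExpr, TMM, robust) over all 9 libraries with group as the only term, Benjamini-Hochberg adjustment over 13076 features and a threshold of 0.01. Each SE is the absolute log2 fold change over the root of its F statistic. CPM used the unrounded counts. The test was checked on simulated counts for 13076 features: 79 of 100 genes changed 2-fold and 98 of 100 changed 4-fold were recovered. The simulation gave every gene the same dispersion and used independent libraries with no replicate effect. The real libraries differ in this, so these are not recovery rates for the present data. Python 3.11.15 with pandas 2.3.3 made the summaries.

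TOT was part of the same lysate as the fractions, and same-numbered libraries deviated together in all 9 pairs (r from 0.179 to 0.416), so a fit with the replicate number as a block is given as the paired analysis. Replicates of a group differed by more than sampling noise. The members and lists were chosen with earlier results of these data known. Genes were named by rule: in POLY minus 80S the 6 largest changes each way past the threshold, in each contrast with TOT the 3 largest each way, the 5 highest mean CPM, every member of 13 function lists, and the genes at the limits of the member rule. CG6503, CG6770, EMRE, Rdh, peg, the 15 genes lower in both fractions, wrm2, CG46307, CG46318, CG46314, CG45101, CG46456, CG43850, CG17325, CG42305, CG10570, CG42502 and the group on PIG-M were added after their values were seen. Alternatives were DESeq2 1.42.0, other scalings, filters, member rules and sets of libraries.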

Additional observations from a re-analysis of the deposited data

How the results depend on the processing

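Of 46 calls on single named genes, 24 were kept in every fit that left out a library and 23 in every alternative run, and none of the 782 alternative values was reversed. The cause of the changes in count was not tested. With the replicate block, which lost none of the members called without it, there were 25 higher and 32 lower in POLY minus 80S, 13 higher and 65 lower in 80S minus TOT and 15 higher and 74 lower in POLY minus TOT, of which stand-alone genes gave 15 higher and 15 lower in POLY minus 80S, 2 higher and 41 lower in 80S minus TOT and 1 higher and 44 lower in POLY minus TOT. DESeq2 gave 16 higher and 16 lower in POLY minus 80S, 10 higher and 48 lower in 80S minus TOT and 12 higher and 49 lower in POLY minus TOT over the members and 6 higher and 5 lower in POLY minus 80S, 0 higher and 28 lower in 80S minus TOT and 1 higher and 25 lower in POLY minus TOT over the stand-alone genes, beside 7.25% and 4.78%, 7.63% and 8.87%, and 10.4% and 9.85% of all features in the same order. DESeq2 also covered the 6374 nuclear protein-coding genes with the same count minimum, a closer match to the members. Of these it called 9.84% higher and 10.2% lower in POLY minus 80S, and 18.7% and 15.8% in 80S minus TOT. In POLY minus TOT it called 21.3% and 20.1% of them. With only the 6 libraries compared, 3 members and 0 stand-alone genes were lower in POLY minus 80S, beside 1.35% of all features. The calls on drm and CG16978 were lost. With TMM factors from nuclear coding genes 1 stand-alone gene was higher in POLY minus TOT, beside 13.5% of all features. With 100 counts required of every tested feature 1 was lower in POLY minus 80S, beside 3.32%. A mean of 100 counts in place of the minimum took in 233 genes. In POLY minus 80S 14 of them were higher and 19 lower, in 80S minus TOT 4 and 57, and in POLY minus TOT 11 and 83. Of the 137 without overlap, 6 were higher and 7 lower, 0 and 37, and 3 and 46 in the same order. A limit of 80 codons left 91 genes. In POLY minus 80S 11 of them were higher and 5 lower, in 80S minus TOT 4 and 24, and in POLY minus TOT 7 and 26. Of the 42 without overlap, 3 were higher and 0 lower, 0 and 10, and 0 and 10 in the same order. Leaving out members with an overlap left 71 genes. In POLY minus 80S 4 of them were higher and 2 lower, in 80S minus TOT 0 and 21, and in POLY minus TOT 0 and 23. These changes to the member rule kept the main fit. It called 7.87% and 4.31%, 6.68% and 8.95%, and 10.4% and 12.2% of all features in the same order. The mean share of library counts on the members was 1.32% in 80S, 1.39% in POLY and 1.72% in TOT, against 1.03, 1.15 and 1.21% with at most 80 codons and 0.582, 0.615 and 0.963% without overlap. In a setting chosen after seeing the data, replicates 2 and 3 alone, since replicate 1 was low in stand-alone genes, there were 16 higher and 15 lower in POLY minus 80S, 7 higher and 41 lower in 80S minus TOT and 10 higher and 36 lower in POLY minus TOT, and for stand-alone genes, a set also added after seeing the data, 7 higher and 6 lower in POLY minus 80S, 0 higher and 23 lower in 80S minus TOT and 1 higher and 23 lower in POLY minus TOT, beside 8.52% and 3.91%, 6.66% and 9.15%, and 11.4% and 10.3% of all features. Fits that each omitted 1 library gave for the members 7 to 13 higher and 4 to 18 lower in POLY minus 80S, 2 to 6 higher and 18 to 44 lower in 80S minus TOT, 6 to 10 higher and 24 to 51 lower in POLY minus TOT. The stand-alone genes gave 1 to 5 higher and 1 to 6 lower in POLY minus 80S, 0 higher and 10 to 25 lower in 80S minus TOT, 0 higher and 13 to 28 lower in POLY minus TOT. Over all features the same fits called 5.06 to 7.9% higher and 1.32 to 4.42% lower in POLY minus 80S, 1.49 to 7.05% higher and 4.5 to 10.5% lower in 80S minus TOT, 5.15 to 12.4% higher and 5.81 to 14.5% lower in POLY minus TOT. The median log2 fold change of the short-protein genes ranged from -0.53 to -0.29 in POLY minus TOT. The median log2 fold change of the stand-alone short-protein genes ranged from -0.62 to -0.35 in POLY minus TOT. Members near the count minimum are limited by depth.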

Other observations

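The 28 short genes that the symbol rule left out had lower medians than the 134 members together, a difference that was not tested. In POLY minus 80S, 7 fell and 1 rose with a median of -0.38. With the replicate block 16 fell and 3 rose, beside 14.2% and 12.8% of all features. In 80S minus TOT 11 fell with a median of -0.45, and in POLY minus TOT 17 fell and 1 rose with -0.67. The shares of all features without the block are given below. The stand-alone members alone had medians of -0.05, -0.46 and -0.44, so in 80S minus TOT the 28 genes were not below them. The genes that fell in POLY minus 80S were RpS27, RpL37-1, RpS29, RpS28b, RpS21 and RpL29, which encode ribosomal proteins, and UQCR-Q, a subunit of respiratory complex III. RpS27 had 142 ± 34.2 CPM in 80S, 74.2 ± 1.85 in POLY and 208 ± 19.6 in TOT (SD, n = 3), at -0.94 ± 0.15, adjusted p = 0.00088 in edgeR. RpS28b had 228 ± 2.89 CPM in 80S, 142 ± 12.4 in POLY and 508 ± 43.1 in TOT, at -0.68 ± 0.09, adjusted p = 0.00042. The gene that rose was Drsl5, related to the antifungal peptide drosomycin, with 54.8 ± 5.69 CPM in 80S, 89.00 ± 4.91 in POLY and 50.3 ± 2.80 in TOT and 0.70 ± 0.10, adjusted p = 0.00037.

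A further 650 short genes outside these families missed the count minimum, of which 80 had no count in any library and 249 were tested. Their medians were -0.12 in POLY minus 80S, -0.41 in 80S minus TOT and -0.44 in POLY minus TOT, with 10 higher and 9 lower, 3 and 30, and 7 and 45 past the threshold in the same order, beside 7.87% and 4.31%, 6.68% and 8.95%, and 10.4% and 12.2% of all features. The remaining ones had too few counts to be tested at these depths.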
